A study of Mus musculus with 20 samples.

Results

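The circadian clock genes described here were Arntl, Clock, Npas2, Cry1, Per1, Per2, Per3, Nr1d1, Nr1d2 and Dbp. They were taken by symbol, and the set was chosen with earlier results of these data known. All 10 were listed in each of the 20 libraries, among 22298 listed genes. Of these 10 genes, 9 passed the filter on low counts, which left 12342 genes for testing, and Npas2 did not pass.

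Liver RNA came from 20 male mice of the genotype Lepr db/db, in which the leptin receptor does not function and obesity with diabetes follows. Every mouse received an AAV8 vector by tail vein at 5 weeks of age, with a non-targeting shRNA (Vec) or a 4-in-1 shRNA against Pparg (shRNA). BBR (benzbromarone), a drug that lowers uric acid, was given by gavage at 25 mg/kg once daily for 4 weeks, and the other mice received the vehicle CMC-Na alone. The groups were Vec, Vec+BBR, shRNA and shRNA+BBR, with 5 mice and 5 libraries in each. The labels call the silenced gene only PPAR, and the study's methods name PPARγ. No lean mice and no mice without a vector were analysed here, and the promoter that drives the shRNA is not given in the sources used here. Tissues were collected after a 6 h fast. The time of day of collection is not given in those sources, so group and time of collection cannot be told apart in any comparison below. Each library came from 1 mouse and was made from polyadenylated RNA.

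Total counts per library ran from 17432903 to 25024094. Mitochondrial genes took 9.14% to 10.8% of the counts in Vec, 9.96% to 13.8% in Vec+BBR, 9.9% to 12.3% in shRNA and 10.2% to 16.2% in shRNA+BBR mice. The summed level of 5 hepatocyte markers had group medians from 101944 to 131687 CPM (counts scaled to a common library size by TMM factors), as against 93.6 CPM for 5 endothelial markers in shRNA+BBR mice. Pparg itself, the targeted gene, was at 24.8 ± 8.63 CPM in Vec and 5.73 ± 1.53 CPM in shRNA mice (SD, n = 5 per group). With BBR it was at 31.8 ± 4.57 CPM in Vec+BBR and 13.9 ± 6.22 CPM in shRNA+BBR mice. Both knockdown differences passed the test (log2 fold changes −2.12 and −1.20, edgeR adjusted p = 4.47e-05 and 0.00843), and Pparg was higher in shRNA+BBR than in shRNA mice (1.28, edgeR adjusted p = 0.00773). In bulk tissue, fewer cells of a type and less RNA per cell cannot be told apart.

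The mammalian clock is a feedback loop of transcription. BMAL1, the product of Arntl, pairs with CLOCK or its relative NPAS2, binds E-box elements and switches on the Per, Cry, Nr1d and Dbp genes. PER and CRY proteins then inhibit the pair, and the REV-ERB receptors, the products of Nr1d1 and Nr1d2, repress Arntl, Npas2, Clock and Cry1 through RORE elements, while DBP acts on D-box elements. In mouse liver the RNA of Nr1d1, Dbp and Per3 is known to peak by day, that of Per1 and Per2 around dusk, and that of Arntl, Npas2 and Cry1 late at night, and the liver clock follows the time of feeding.

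The windows around the starts of 4 of these genes are printed because they hold the letters of such elements. They come from RefSeq on GRCm38.p6, run 5′ to 3′ on the strand of the gene and hold 250 bases before the start and 50 from it on, with motif matches in capitals. Arntl was read at chr7:113207261-113207560 (plus strand), Cry1 at chr10:85185005-85185304, Nr1d1 at chr11:98775328-98775627 and Per3 at chr4:151044616-151044915 (minus strand).
Arntl: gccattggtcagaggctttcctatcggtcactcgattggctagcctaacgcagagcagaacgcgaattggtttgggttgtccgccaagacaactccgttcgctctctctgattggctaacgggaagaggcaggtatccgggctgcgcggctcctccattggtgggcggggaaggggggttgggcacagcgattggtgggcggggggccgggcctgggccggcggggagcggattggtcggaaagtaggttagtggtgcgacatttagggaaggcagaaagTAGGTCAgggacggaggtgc
Cry1: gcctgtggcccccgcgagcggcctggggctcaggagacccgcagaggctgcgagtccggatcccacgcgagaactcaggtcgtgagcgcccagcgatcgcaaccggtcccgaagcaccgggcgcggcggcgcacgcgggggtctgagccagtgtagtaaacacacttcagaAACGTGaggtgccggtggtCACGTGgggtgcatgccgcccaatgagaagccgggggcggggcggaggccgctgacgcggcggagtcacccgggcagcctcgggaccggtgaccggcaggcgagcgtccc
Nr1d1: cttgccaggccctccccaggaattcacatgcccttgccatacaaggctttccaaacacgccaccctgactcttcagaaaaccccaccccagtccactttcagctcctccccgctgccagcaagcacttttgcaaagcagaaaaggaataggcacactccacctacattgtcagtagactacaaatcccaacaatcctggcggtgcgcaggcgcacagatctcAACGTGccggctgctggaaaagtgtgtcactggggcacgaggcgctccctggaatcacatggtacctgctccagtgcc
Per3: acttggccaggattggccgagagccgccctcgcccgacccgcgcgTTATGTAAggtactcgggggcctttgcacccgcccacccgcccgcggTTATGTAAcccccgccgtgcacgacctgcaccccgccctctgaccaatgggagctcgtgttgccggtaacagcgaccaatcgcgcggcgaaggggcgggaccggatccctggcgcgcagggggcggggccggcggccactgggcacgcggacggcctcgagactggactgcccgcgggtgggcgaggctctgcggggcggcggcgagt
Both strands were searched for the E-box CACGTG and for its variant with the letters CACGTT, which reads AACGTG on the other strand. The D-box was searched as TTATGTAA and as TTACGTAA, and the RORE core as TAGGTCA. The related core TGGGTCA was searched too. No 2 matches overlapped. With the first transcribed base counted as 1, the printed Arntl window held TAGGTCA from base 31 to base 37. The Cry1 window held CACGTG from −60 and AACGTG from −79, and the Nr1d1 window held AACGTG from −28. The Per3 window held TTATGTAA from −205 and again from −158. Per1 held CACGTG from −166 (chr11:69098699-69098998, plus strand). Over 32851 windows of the same length, 7.15% held CACGTG, 4.68% the CACGTT variant, 1.06% a D-box and 6.45% a RORE core. Of the 10 clock genes, 9 had at least 1 window and together they had 13. No match was found in those of Dbp, Clock, Npas2 and Nr1d2, or in a further window of Arntl (chr7:113207215-113207514) and of Per1 (chr11:69099902-69100201). This says only that these letters are not in those windows.

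Per length of transcript, Dbp was the most abundant clock gene, with a mean of 21.3 FPKM over the 20 mice (range 8.82 to 48.2). Nr1d2 followed at 6.71 FPKM, Per1 at 6.02, Cry1 at 5.87 and Nr1d1 at 4.51. The ranges of these 4 genes over the mice overlapped one another, so their order is not firm. Per2 was at 2.78 FPKM, Arntl at 1.97, Per3 at 1.96 and Clock at 1.48. The place of Arntl depended on the group, since its mean was 1.23 FPKM in Vec and 0.987 in Vec+BBR mice, below Per3 at 2.43 and 1.91, and 2.87 in shRNA and 2.79 in shRNA+BBR mice, above Per3 at 2.08 and 1.42. Npas2 was the lowest at 0.0778 FPKM, with rounded counts from 0 to 25 per library.

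**Figure D1:**
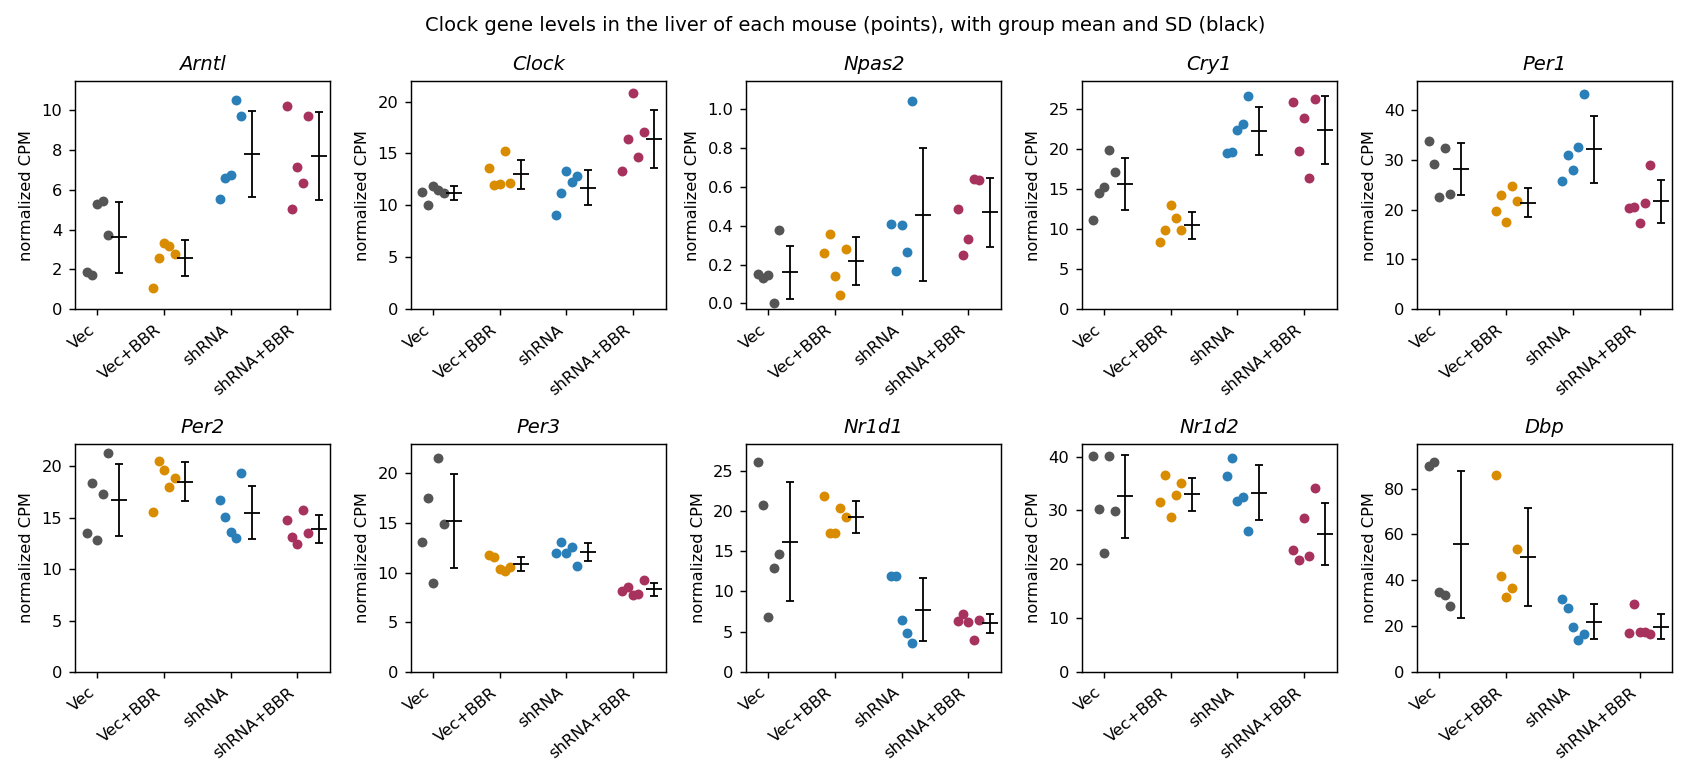
Normalized CPM (y axis, from 0) of each clock gene in each of the 5 mice per group (points, left to right by replicate number), with the group mean and SD in black. The means of Arntl and Cry1 lie higher, and those of Nr1d1 and Dbp lower, in shRNA and shRNA+BBR mice than in the Vec and Vec+BBR mice respectively.

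Knockdown of PPARγ was compared first, without BBR (shRNA against Vec) and then with BBR (shRNA+BBR against Vec+BBR). In the absence of BBR, 2 of the 9 clock genes tested rose, namely Arntl and Cry1, and 2 fell, Nr1d1 and Dbp. Of all genes tested, 5.28% were higher and 7.91% lower in that comparison at an edgeR adjusted p under 0.05. In mice given BBR the same 4 genes were called in the same directions, against 3.31% of all genes higher and 4.82% lower. The comparisons use separate mice.

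Arntl (ENSMUSG00000055116, chromosome 7 from 113207465 to 113314126 in GENCODE M21 on GRCm38) encodes the activator BMAL1. Vec mice had 1.85, 1.74, 5.30, 5.43 and 3.72 CPM of Arntl, while shRNA mice had 5.53, 6.58, 6.72, 10.5 and 9.67 CPM. Every shRNA mouse was above every Vec mouse, by a small margin between the closest ones. Arntl thus rose 2.15-fold, by 1.10 on the log2 scale (standard error 0.31, edgeR adjusted p = 0.0229). With BBR, Arntl was at 1.07, 2.55, 3.33, 3.17 and 2.78 CPM in Vec+BBR and at 10.2, 5.01, 7.15, 6.34 and 9.68 CPM in shRNA+BBR mice. These groups were further apart, with no overlap. Arntl rose by 1.57 on the log2 scale (standard error 0.32, edgeR adjusted p = 0.00519), and this passed under all 28 alternative settings. Without BBR the call was lost when Vec replicate 1 or 2, or shRNA replicate 4 or 5, was left out, with adjusted p up to 0.0687 in edgeR.

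Clock (ENSMUSG00000029238, chromosome 5), the partner of BMAL1, was less variable. In Vec mice it was at 11.3, 10, 11.9, 11.5 and 11.2 CPM, and in shRNA mice at 9.09, 11.2, 13.3, 12.3 and 12.8 CPM. The groups overlapped, and the log2 fold change of 0.07 did not pass (standard error 0.12, edgeR adjusted p = 0.735). With BBR it was at 13.6, 12, 12.1, 15.2 and 12.2 CPM in Vec+BBR and at 13.3, 16.4, 20.8, 14.7 and 17.1 CPM in shRNA+BBR mice, a log2 fold change of 0.34 that missed the threshold in edgeR (adjusted p = 0.072) and passed in DESeq2 (adjusted p = 0.0482).

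Npas2 (ENSMUSG00000026077, chromosome 1), which can replace CLOCK, was near the floor of 3 counts. The rounded counts were 3, 2, 3, 0 and 8 in Vec, 6, 8, 3, 1 and 6 in Vec+BBR, 9, 3, 10, 6 and 25 in shRNA, and 10, 6, 7, 14 and 13 in shRNA+BBR mice. The most counts were found in the mice with the knockdown, though the groups overlapped. When no filter was applied, the log2 fold change was 1.48 without BBR (edgeR adjusted p = 0.125) and 1.08 with BBR (edgeR adjusted p = 0.287), and neither passed. In at least 1 fit with a mouse left out, Npas2 passed the filter and was called in shRNA against Vec. No mouse without the knockdown had more than 8 counts, under the minimum count of 10. Npas2 thus passed the filter only through the knockdown mice, where it was high, and that call is no support for a difference.

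Cry1 (ENSMUSG00000020038, chromosome 10 from 85131700 to 85185064) encodes an inhibitor of the BMAL1 and CLOCK pair. Without BBR, Cry1 was at 11.1, 14.5, 15.3, 19.9 and 17.2 CPM in Vec and at 19.5, 19.7, 22.4, 23.2 and 26.7 CPM in shRNA mice. Vec replicate 4 overlapped the 2 lowest shRNA mice. Cry1 rose by 0.52 on the log2 scale (standard error 0.15, edgeR adjusted p = 0.0281), and the call was lost when Vec replicate 1, 2 or 3 or shRNA replicate 4 or 5 was left out (adjusted p up to 0.0812 in edgeR). With BBR, Cry1 was at 8.46, 9.90, 13, 11.4 and 9.93 CPM in Vec+BBR and at 25.9, 19.8, 23.9, 16.4 and 26.3 CPM in shRNA+BBR mice. These groups did not overlap. The rise was 2.13-fold, or 1.09 on the log2 scale (standard error 0.15, edgeR adjusted p = 0.000301), and stayed past the threshold under every alternative tried.

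The Per genes encode the partners of CRY in inhibition. None of the 3 passed in either knockdown comparison. Per1 (ENSMUSG00000020893, chromosome 11) was at 28.2 ± 5.20 CPM in Vec and 32.1 ± 6.73 in shRNA mice, and at 21.4 ± 2.85 in Vec+BBR and 21.7 ± 4.33 in shRNA+BBR mice (SD, n = 5 per group), with log2 fold changes of 0.19 and 0.02. Per2 (ENSMUSG00000055866, chromosome 1) was at 15.6, 20.5, 19.6, 18 and 18.9 CPM in Vec+BBR and at 14.8, 13.1, 12.4, 15.7 and 13.5 CPM in shRNA+BBR mice. Only the lowest Vec+BBR mouse and the highest shRNA+BBR mouse overlapped, and the log2 fold change of −0.41 missed the threshold in edgeR (adjusted p = 0.0559) and passed in DESeq2 (adjusted p = 0.039). Per3 (ENSMUSG00000028957, chromosome 4 from 151003652 to 151044665) was at 11.8, 11.6, 10.4, 10.2 and 10.6 CPM in Vec+BBR and at 8.19, 8.58, 7.72, 7.90 and 9.29 CPM in shRNA+BBR mice. The groups did not overlap, yet the log2 fold change of −0.39 did not pass over all genes (standard error 0.15, edgeR adjusted p = 0.115). Without BBR the log2 fold changes of Per2 and Per3 were −0.10 and −0.33 (edgeR adjusted p = 0.652 and 0.146).

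Nr1d1 (ENSMUSG00000020889, chromosome 11 from 98767932 to 98775333) encodes REV-ERBα, the repressor of Arntl. Its level was 26.1, 20.8, 6.82, 12.9 and 14.6 CPM in Vec and 11.9, 11.9, 6.44, 4.86 and 3.58 CPM in shRNA mice. Vec replicate 3 lay within the range of the shRNA mice. Nr1d1 fell by 1.07 on the log2 scale (standard error 0.31, edgeR adjusted p = 0.0254), and the call was lost without Vec replicate 1 or 2, without shRNA replicate 3, 4 or 5 and in a fit of only both groups (adjusted p up to 0.092 in edgeR). With BBR, Nr1d1 was at 21.8, 17.3, 17.3, 20.4 and 19.3 CPM in Vec+BBR and at 6.35, 7.21, 6.16, 3.97 and 6.50 CPM in shRNA+BBR mice. Every Vec+BBR mouse was at 17.3 CPM or more, and no shRNA+BBR mouse was above 7.21 CPM. Nr1d1 was 3.18-fold lower, at −1.67 on the log2 scale (standard error 0.31, edgeR adjusted p = 0.00322), and no alternative ended the call. Nr1d2 (ENSMUSG00000021775, chromosome 14), which encodes REV-ERBβ, was at 32.6 ± 7.74 CPM in Vec and 33.3 ± 5.10 in shRNA mice, and at 33.0 ± 3.07 in Vec+BBR and 25.6 ± 5.74 in shRNA+BBR mice (SD, n = 5 per group). Neither difference passed, with log2 fold changes of 0.03 and −0.37 (edgeR adjusted p = 0.92 and 0.15).

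Dbp (ENSMUSG00000059824, chromosome 7 from 45705088 to 45710203) encodes a transcription factor that carries the clock's rhythm to target genes. Its level was 89.8, 91.8, 35.1, 33.4 and 28.6 CPM in Vec and 31.8, 28, 19.8, 14.1 and 16.4 CPM in shRNA mice. The Vec mice fell into a high pair and 3 lower mice, of which the lowest overlapped the shRNA group. Dbp fell by 1.34 on the log2 scale (standard error 0.34, edgeR adjusted p = 0.012), with adjusted p between 0.00202 and 0.0452 over all alternatives. With BBR, Dbp was at 85.9, 41.9, 32.6, 36.6 and 53.8 CPM in Vec+BBR and at 17, 29.5, 17.6, 17.6 and 16.6 CPM in shRNA+BBR mice. The groups did not overlap, although shRNA+BBR replicate 2 came close. Dbp fell by 1.35 on the log2 scale (standard error 0.34, edgeR adjusted p = 0.0176), and the adjusted p became 0.0503 in edgeR without Vec+BBR replicate 1.

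The NEBNext Ultra RNA kit named in the labels does not mark the strand. Nr1d1 shares 263 of its 3077 exon bases with Thra on the opposite strand, and Dbp shares 539 of 2993 with Sphk2, so reads there cannot be told apart. Thra, a thyroid hormone receptor gene, was called in none of the comparisons, and its mean lay between 7.92 and 8.96 CPM in the 4 groups. Sphk2, a sphingosine kinase gene, was not called in either knockdown comparison, with log2 fold changes of 0.23 and −0.11. It fell in shRNA+BBR against shRNA (−0.39, edgeR adjusted p = 0.0154), and its mean lay between 32 and 41.8 CPM in the 4 groups. Its part in the counts of Dbp was not tested. In the marker lists for other cells of the liver, 3 of 5 endothelial markers (Stab2, Clec4g and Kdr) rose and 1 of 5 stellate markers (Col1a1) fell in shRNA against Vec, against 5.28% of all genes higher and 7.91% lower. The hepatocyte marker Cyp2e1 and the lymphocyte marker Nkg7 fell there as well. The summed endothelial markers ran from 65.3 to 90.0 CPM in Vec and from 96.0 to 130 CPM in shRNA mice, and their part in the clock gene differences was not tested. With BBR, none of the 25 hepatocyte, Kupffer, stellate, endothelial and cholangiocyte markers passed, and Nkg7 was the only lymphocyte marker that rose.

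**Figure D2:**
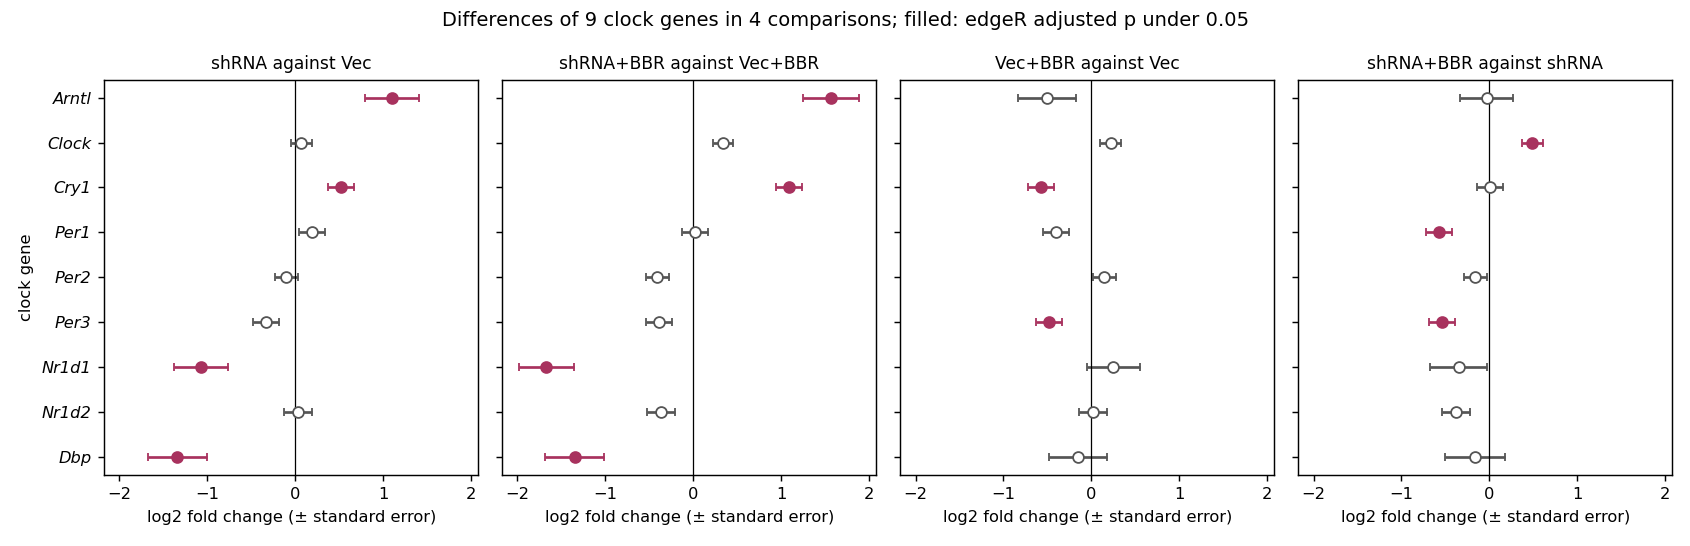
Log2 fold change (x axis) with its standard error for the 9 clock genes tested (y axis) in 4 comparisons, filled where the edgeR adjusted p was under 0.05. Both knockdown panels show Arntl and Cry1 to the right and Nr1d1 and Dbp to the left, from −1.67 for Nr1d1 to 1.57 for Arntl, and the values in the BBR panels lie between −0.57 and 0.49.

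BBR was compared with vehicle in mice with either vector, which asks whether the drug moved the clock genes. Each of these comparisons shares a group of mice with each knockdown comparison, so their results are not independent. In Vec+BBR against Vec, 2 of 9 clock genes fell, Cry1 and Per3, and none rose, against 7.88% of all genes lower and 7.58% higher. Cry1 was at 15.6 ± 3.25 CPM in Vec and 10.5 ± 1.72 CPM in Vec+BBR mice (SD, n = 5 per group), and the mice given above for each group overlapped only between 11.1 and 13 CPM. Cry1 fell by 0.57 on the log2 scale (standard error 0.15, edgeR adjusted p = 0.0168). Per3, whose window with paired D-box letters is printed above, was at 13.1, 17.5, 8.97, 21.6 and 14.9 CPM in Vec mice, and the Vec+BBR mice lay within that range, from 10.2 to 11.8 CPM. The Vec mice were far more spread, and the log2 fold change was −0.48 (standard error 0.15, edgeR adjusted p = 0.0353). Neither gene passed without Vec replicate 4. With library size as the only scaling the median of all genes moved from −0.01 to 0.13, Cry1 and Per3 were at −0.44 and −0.35, and neither passed (edgeR adjusted p = 0.0787 and 0.136). Per3 also lost its call in 7 further settings, of which 1 was limma-voom (adjusted p = 0.0761) and the others reached an adjusted p of up to 0.115 in edgeR. The other members had log2 fold changes from −0.50 for Arntl to 0.25 for Nr1d1. Clock, at 0.22, showed no overlap between groups but did not pass (edgeR adjusted p = 0.213), and Per1, at −0.40, did not either (edgeR adjusted p = 0.081).

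Some markers of liver cell types, of 5 listed for each, moved in the same comparison. Of all genes, 7.58% were higher and 7.88% lower there. The summed cholangiocyte markers ran from 24.0 to 45.3 CPM in Vec and from 50.3 to 96.6 CPM in Vec+BBR mice, with no overlap. Spp1 was the 1 of 5 that rose. The median log2 fold change of the 5 was 0.29, beside −0.01 over all genes, so the sum need not speak for each of them. Of the stellate markers Col1a1 rose, and their sum went from 129 to 226 CPM in Vec and from 226 to 258 CPM in Vec+BBR mice. Pecam1 and Oit3 rose among the endothelial markers. The hepatocyte markers Serpina1c and Cyp2e1, the Kupffer cell marker Timd4 and the lymphocyte marker Nkg7 fell, and the summed hepatocyte markers had medians of 131687 CPM in Vec and 101944 CPM in Vec+BBR mice. Their part in the values of Cry1 and Per3 was not tested.

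After knockdown (shRNA+BBR against shRNA), 1 of 9 clock genes rose, Clock, and 2 fell, Per1 and Per3, against 8.37% of all genes higher and 7.28% lower. Clock, at the levels given above, was highest in shRNA+BBR mice, and the lowest of them and the highest shRNA mouse were both at 13.3 CPM. Clock rose by 0.49 on the log2 scale (standard error 0.12, edgeR adjusted p = 0.0113), and passed under every alternative. Per1 was at 25.8, 30.9, 28, 32.6 and 43.2 CPM in shRNA and at 20.3, 20.6, 17.3, 21.3 and 29.0 CPM in shRNA+BBR mice. A single shRNA+BBR mouse overlapped the shRNA group. The log2 fold change was −0.57 (standard error 0.15, edgeR adjusted p = 0.0196). Per3 was at 12.0, 13.1, 12.0, 12.6 and 10.7 CPM in shRNA mice, above every shRNA+BBR mouse, and fell by 0.54 on the log2 scale (standard error 0.15, edgeR adjusted p = 0.0245). Leaving out shRNA+BBR replicate 3 reduced the calls from 3 to 1. Of the cell type markers, Lrat and Col1a1 (stellate), Spp1 (cholangiocyte) and Nkg7 (lymphocyte) rose in this comparison, and Stab2 and Kdr (endothelial) and Serpina1c (hepatocyte) fell. The median log2 fold change of the 5 cholangiocyte markers was 0.39, beside 0.01 over all genes. The summed cholangiocyte markers ran from 25.9 to 34.4 CPM in shRNA and from 31.0 to 87.7 CPM in shRNA+BBR mice, beside mitochondrial shares of 9.9% to 12.3% and 10.2% to 16.2%, and the part of these was not tested. Arntl, Cry1, Nr1d1 and Dbp, the genes called in the knockdown comparisons, had log2 fold changes of −0.03, 0.01, −0.35 and −0.16 here, and none passed. With limits of 2 standard errors, the difference of Arntl was between −0.62 and 0.56 and that of Cry1 between −0.29 and 0.31.

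The difference between the BBR effects with and without knockdown was tested as an interaction. No clock gene passed (0 of 9 in edgeR, DESeq2 and limma-voom), against 0.146% of all genes in edgeR. Over all genes, 330 passed in DESeq2 and 11 in limma-voom. At an unadjusted p under 0.05, 1 of 9 did with each of these tools, against 18.5% of all genes in edgeR. That gene was Cry1, with an interaction of 0.57 on the log2 scale (standard error 0.21, edgeR adjusted p = 0.174). A difference between the knockdown effects with and without BBR, which is the same quantity, did not pass for Arntl (0.47, standard error 0.44, edgeR adjusted p = 0.578) or Nr1d1 (−0.60, standard error 0.43, edgeR adjusted p = 0.463).

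The levels of the night genes Arntl, Clock, Npas2 and Cry1 were set against those of the day genes Nr1d1, Nr1d2, Dbp and Per3 in each mouse, as the mean log2 CPM of the former minus that of the latter. This value is a description and was not tested. It was −3.58, −3.52, −1.92, −2.91 and −2.27 in Vec, and −3.47, −2.77, −2.59, −2.91 and −2.88 in Vec+BBR mice. In shRNA mice it was −2.09, −2.21, −1.40, −1.19 and −0.54, and in shRNA+BBR mice −0.83, −1.53, −1, −0.86 and −0.86. As means, night genes stood higher relative to day genes in mice with the knockdown. The value holds Arntl, Cry1, Nr1d1 and Dbp, which were called above, so it is no separate support. Clock, Nr1d2 and Per3 were not called in edgeR in either knockdown comparison. Their log2 fold changes were 0.07, 0.03 and −0.33 without BBR and 0.34, −0.37 and −0.39 with BBR. With BBR the groups with and without knockdown did not overlap, and without BBR Vec replicate 3 lay above the 2 lowest shRNA mice. The means were −2.84 ± 0.74, −2.93 ± 0.33, −1.49 ± 0.68 and −1.02 ± 0.29 in the order above (SD, n = 5 per group). Npas2, with few counts, weighs on the level of this value. Without it the means were −1.54 ± 0.79, −1.77 ± 0.46, −0.31 ± 0.61 and 0.16 ± 0.24 (SD, n = 5 per group), with Vec+BBR lowest and shRNA+BBR highest as before.

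**Figure D3:**
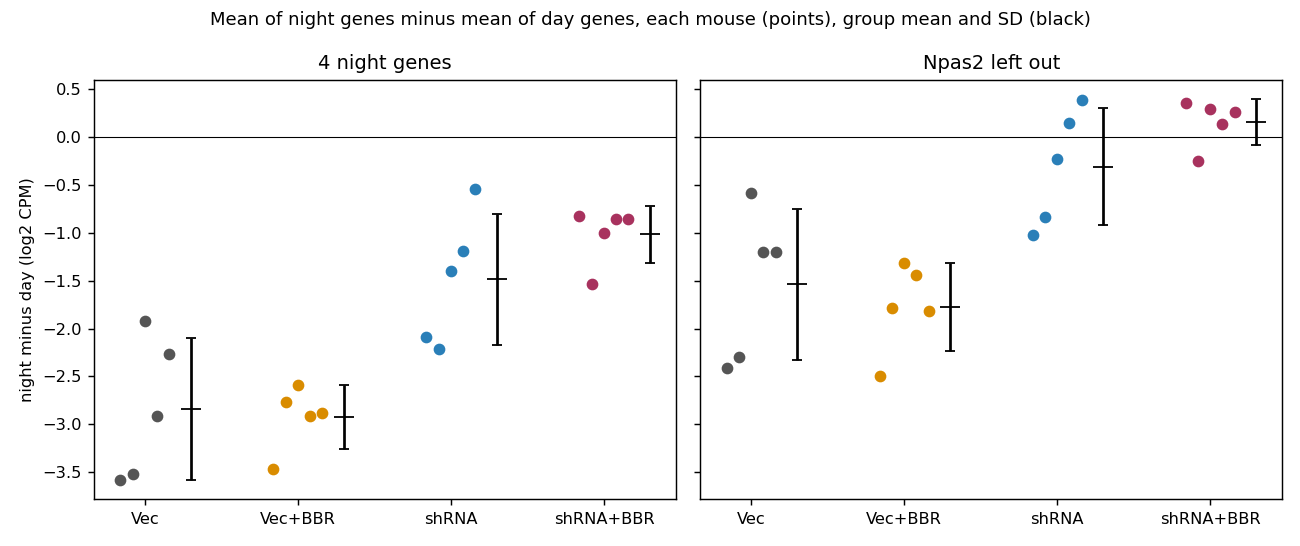
Night minus day value (y axis, log2 CPM) in each of 5 mice per group (points, left to right by replicate number), with the group mean and SD in black, for all 4 night genes and with Npas2 left out. The shRNA+BBR mice sit between −1.53 and −0.83 with all 4 genes, above all Vec+BBR mice, which sit between −3.47 and −2.59.

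Mice of the same group also differed from one another along this axis. Vec replicates 1 and 2 had the lowest Arntl of their group, with 1.85 and 1.74 CPM, and the highest Dbp, with 89.8 and 91.8 CPM. Vec+BBR replicate 1 had the lowest Arntl of all 20 mice, at 1.07 CPM, with 85.9 CPM of Dbp. Across the 20 mice, log2 CPM of Dbp and Arntl had a Pearson r of −0.94 and a Spearman rho of −0.94, and r was −0.92 without the pair of mice farthest from the median of Arntl. Among 9794 tested genes with a mean count of at least 50, Dbp ranked last of all by its r with Arntl. For Nr1d1 and Arntl r was −0.86 and rho −0.90, and for Cry1 and Arntl r was 0.90 and rho 0.91. With each group's mean removed, r was −0.90 for Dbp, −0.62 for Nr1d1 and 0.77 for Cry1. Clock, Per1, Per2, Per3 and Nr1d2 had r with Arntl between −0.37 and 0.29. These values are descriptions with no test, and the mice share group and scaling.

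**Figure D4:**
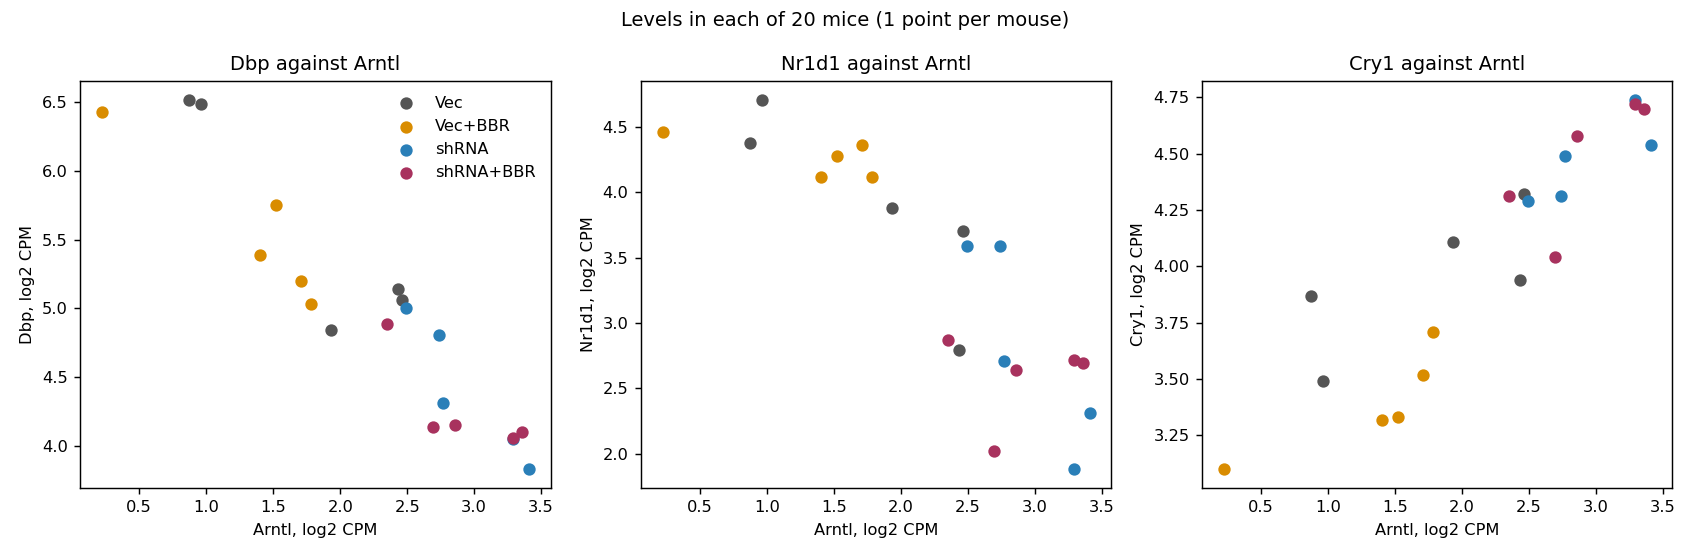
Log2 CPM of Dbp, Nr1d1 and Cry1 (y axes) against that of Arntl (x axis), 1 point for each of the 20 mice, coloured by group. Dbp and Nr1d1 are low where Arntl is high (r = −0.94 and −0.86), Cry1 is high with it (r = 0.90), and Vec and Vec+BBR mice hold the low end of Arntl.

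The 5 genes with the pattern most like Arntl over the 20 mice were Plin5 (Pearson r = 0.93), which encodes a lipid droplet protein, Chka (0.93), a choline kinase gene, Cry1 (0.90), Cdkn1a (0.90), which encodes the cell cycle inhibitor p21, and Desi2 (0.89). With group means removed, r was 0.80 for Plin5, 0.83 for Chka, 0.90 for Cdkn1a and 0.81 for Desi2. Those most like Nr1d1 were Sdf2l1 (0.88), which encodes a protein of the endoplasmic reticulum, Dbp (0.87), Yipf5 (0.86), Slc33a1 (0.85) and Aqp9 (0.85), a glycerol channel gene. Only 2 of the 5 genes nearest to Arntl, and none of the 5 nearest to Nr1d1, were still among the nearest 5 when group means were removed.

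Other genes of the loop were read as a list. Of 9 such genes (Cry2, Arntl2, Rora, Bhlhe40, Bhlhe41, Nfil3, Tef, Hlf and Ciart), 8 were tested. None passed in shRNA against Vec or in Vec+BBR against Vec, where their median log2 fold changes were −0.01 and −0.25, beside −0.01 over all genes in both. Of all genes, 5.28% were higher and 7.91% lower in the former, and 7.58% higher and 7.88% lower in the latter. The shares for the other comparisons are those given above, here and for the lists below. Bhlhe41, a repressor at E-boxes, was at −0.86 in shRNA against Vec and did not pass (standard error 0.33, edgeR adjusted p = 0.0885). With BBR, only Nfil3 rose between the vectors, a repressor at D-boxes and a known target of the REV-ERBs, at 11.6, 17.1, 19.5, 22.8 and 17.3 CPM in Vec+BBR and 39.0, 22.3, 26.2, 20.1 and 29.5 CPM in shRNA+BBR mice. Vec+BBR replicate 4 lay above the 2 lowest shRNA+BBR mice. The log2 fold change was 0.64 (standard error 0.18, edgeR adjusted p = 0.0308), lost under 8 of 28 alternatives. With BBR after knockdown, Cry2, a relative of Cry1, and Tef, a relative of Dbp, fell, with log2 fold changes of −0.53 and −0.46 (edgeR adjusted p = 0.04 and 0.0169), of which that of Cry2 was lost under 8 of 28 alternatives. Rora, which encodes a receptor that competes with the REV-ERBs at RORE elements, passed in none of the comparisons. Of 8 genes for turnover of clock proteins, Gsk3b, a kinase gene, fell in shRNA against Vec (−0.34, edgeR adjusted p = 0.0151). Usp2, a deubiquitinase gene with a daily rhythm in liver, fell with BBR in mice of either vector (−0.53 and −0.45, edgeR adjusted p = 0.017 and 0.0414), and the call after knockdown was lost under 10 of 28 alternatives.

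Among 11 liver genes known to be driven by the clock, Wee1, a kinase gene of the cell cycle with E-boxes in its promoter, fell in both knockdown comparisons. It was at 15.7, 17.9, 14.2, 15.6 and 15.4 CPM in Vec and 14.1, 11.4, 9.82, 7.62 and 9.13 CPM in shRNA mice. These groups did not overlap, and the log2 fold change was −0.60 (standard error 0.14, edgeR adjusted p = 0.00619). With BBR it was −0.54 (standard error 0.14, edgeR adjusted p = 0.0183), again without overlap. Elovl3, which encodes a fatty acid elongase, was the other gene of the list that fell in shRNA against Vec (−1.09, edgeR adjusted p = 0.0115). It rose in shRNA+BBR against shRNA (0.95, edgeR adjusted p = 0.026), which uses the same shRNA mice, so these are not separate results. Por, Cyp7a1, Cyp2a5 and Upp2 fell in Vec+BBR against Vec, by 0.94, 1.44, 1.47 and 1.5 on the log2 scale (adjusted p from edgeR 0.00114, 0.032, 0.00273 and 0.00187). They encode P450 reductase, the rate-limiting enzyme of bile acid synthesis, a P450 enzyme and a uridine phosphorylase. Of all genes, 7.88% were lower in Vec+BBR against Vec. The call of Cyp7a1 was lost under 9 of 28 alternatives. Por also fell in shRNA+BBR against shRNA (−0.60, edgeR adjusted p = 0.0239). The median of the 11 genes was −0.24 in Vec+BBR against Vec and −0.11 in shRNA against Vec, beside −0.01 over all genes in each. In shRNA+BBR against shRNA it was −0.38, beside 0.01 over all genes, and in shRNA+BBR against Vec+BBR it was −0.01, beside −0.00.

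Genes that respond to cues of the liver clock were read in 4 lists, for temperature (6 genes), glucocorticoids (5), feeding and fasting (8) and immediate early genes (5). In shRNA+BBR against Vec+BBR none of these passed in edgeR, where 3.31% of all genes were higher and 4.82% lower. An unadjusted edgeR p under 0.05 was found for 1, 3, 1 and 0 of them, and for 24.7% of all genes. The median log2 fold changes of the 4 lists were −0.07, 0.42, −0.01 and −0.08 in the same order, beside −0.00 over all genes. The glucocorticoid target Tat was at 0.80 with no overlap between the groups, and did not pass (edgeR adjusted p = 0.06). In shRNA against Vec, Cirbp and Rbm3 rose by 0.56 and 0.57 on the log2 scale (adjusted p from edgeR 0.0417 and 0.0195). Their RNA is known to rise with cold, and the call of Cirbp was lost under 9 of 28 alternatives. The heat shock genes of that list, Hspa8, Hsph1, Hspa1a and Hspa1b, were at −0.20, −0.34, −1.67 and −1.54, and none passed. The median of the temperature list was −0.27, beside −0.01 over all genes. Of the glucocorticoid targets, Fkbp5 rose in that comparison and Tsc22d3 fell (0.60 and −0.62, edgeR adjusted p = 0.0339 and 0.00696), and the call of Fkbp5 was lost under 7 of 28. Tsc22d3 was at 64.3, 73.9, 108, 111 and 137 CPM in shRNA mice and at 139 CPM or more in every Vec mouse. No feeding or immediate early gene passed there.

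With BBR in the Vec mice, where Cry1 and Per3 fell, Tsc22d3 and Tat fell as well (−0.55 and −1.18, edgeR adjusted p = 0.0141 and 0.00499). Srebf1, a factor of lipid synthesis, and Pck1 and G6pc, genes of glucose production, fell by 0.57, 0.65 and 0.77 on the log2 scale (adjusted p from edgeR 0.0444, 0.0145 and 0.0234), and Jun rose (0.85, edgeR adjusted p = 0.0395). The call of Srebf1 was lost under 14 of 28 alternatives, among them the removal of any 1 mouse of either group, and that of Jun under 9. In shRNA+BBR against shRNA, where Clock rose and Per1 and Per3 fell, the heat shock genes Hspa8 and Hsph1 rose (0.63 and 0.76, edgeR adjusted p = 0.0159 and 0.045), though the call of Hsph1 was lost under 15 of 28 alternatives. Cirbp, Fkbp5 and Srebf1 fell (−0.87, −0.58 and −0.75, edgeR adjusted p = 0.00602, 0.038 and 0.0154), and the call of Fkbp5 was lost under 8. Cirbp and Fkbp5 are also the genes that rose in shRNA against Vec, which uses the same shRNA mice, so these are not separate results. Fos and Egr1 rose (1.61 and 1.05, edgeR adjusted p = 0.0211 and 0.0308), Fos from 0.513 to 1.59 CPM on average. The part of these cues in the clock gene differences was not tested.

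**Figure D5:**
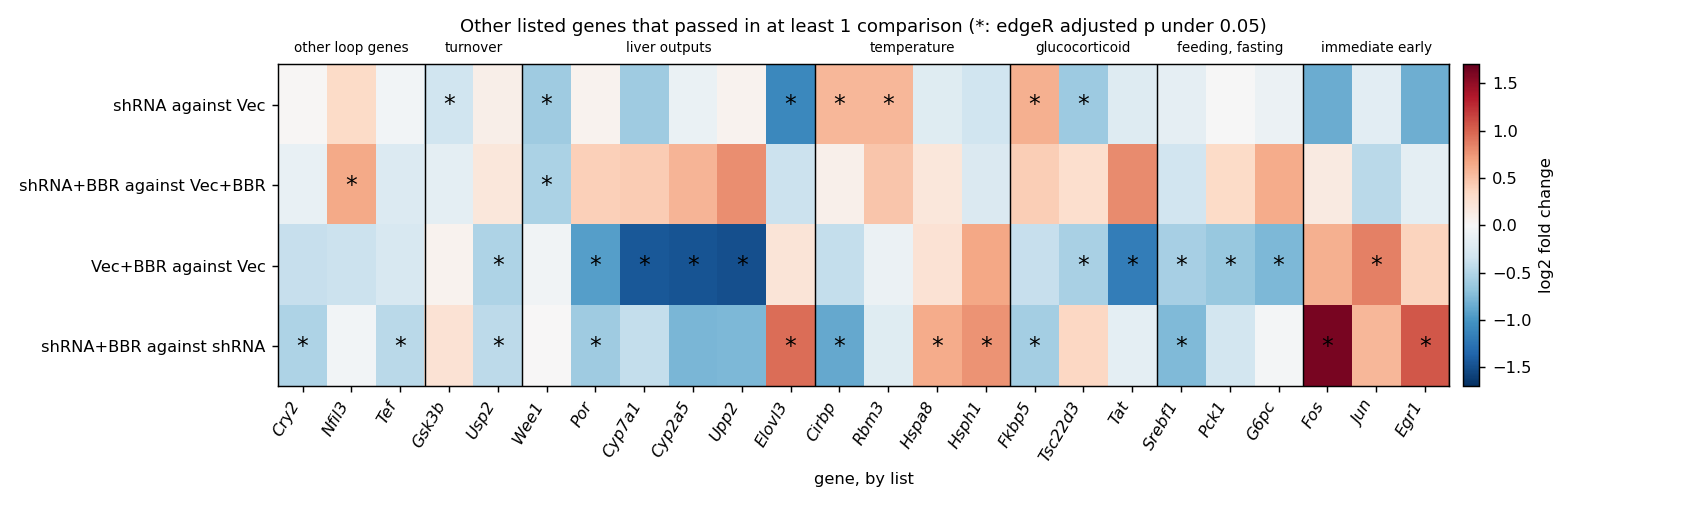
Log2 fold change (colour) of the 24 genes outside the 10 clock genes, by list (x axis), that passed in at least 1 of 4 comparisons (y axis), with an asterisk at an edgeR adjusted p under 0.05. Wee1 carries an asterisk in both knockdown comparisons, and the darkest blue cells are Upp2, Cyp2a5 and Cyp7a1 in Vec+BBR against Vec, at −1.5, −1.47 and −1.44.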

How the data were processed

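Liver RNA from 20 mice in 4 groups of 5 was sequenced, and groups and replicate numbers were taken from the labels. Per the file headers, the authors deposited for each gene an expected count, which was not normalized, and an FPKM value, scaled for transcript length and library size. The submitters' processing notes name the build mm10, and the aligner and counting program are not given in the sources used here. Gene positions were taken from GENCODE M21 on GRCm38, the same build, and promoter windows from RefSeq on GRCm38.p6.

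Expected counts were rounded to whole numbers and filtered with filterByExpr (minimum count 10, minimum total 15), and 12342 of 22298 genes were tested. TMM factors ran from 0.873 to 1.14. The quasi-likelihood test of edgeR 4.0.16 (R 4.3.3) was fitted to all 20 libraries with a mean for each group, and p-values were adjusted over all genes by Benjamini-Hochberg, with a threshold of 0.05. The main fit had no replicate block. The study's methods name no pairing of mice, so the replicate numbers were not used as pairs. Log2 CPM was computed with a prior count of 2. FPKM values were used for the order of levels between genes and in an alternative of the night minus day value. The procedure was tested on simulated data. Counts of 3 or less were treated as the floor. Labels do not say whether the mice of a group were housed or treated apart. The p-values set group differences against the spread between these mice, which were taken as independent. If mice of a group shared housing or treatment, the p-values would be too small.

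The alternatives were other scaling (library size, upper quartile), other filters, a fit of only the groups compared, a replicate block, limma-voom (limma 3.58.1), DESeq2 1.42.0 and the removal of each mouse in turn. Leaving Npas2 out of the night minus day value, and the fold change of Npas2 with no filter, were added after seeing the data. All 10 clock genes were named, and genes of the other lists, cell type markers included, where they passed. Some list genes were also named to say that they did not pass. Of those lists, 1 gene is not reported here. The 5 tested genes with a mean count of at least 50 and the highest Pearson r with Arntl and with Nr1d1 were also named. The members and lists were chosen with earlier results of these data known. The last rank of Dbp against Arntl was noticed after its value was seen.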

Additional observations from a re-analysis of the deposited data

Results flagged for a closer look

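A value was marked where 1 mouse of a group of 5 lay far from the others, by the gap to its nearest neighbour over the range of the group (Dixon's 95% critical value). Of 44 groups examined, 3 had such a value, and chance marks about 1 in 20 groups. Npas2 in shRNA replicate 5 was at 1.04 CPM, a gap of 0.72 of the range. Dbp in shRNA+BBR replicate 2 was at 29.5 CPM, against 16.6 to 17.6 CPM in the other 4 mice, a gap of 0.92 of the range. The night minus day value of that mouse was −1.53, a gap of 0.75 of the range. It also had the lowest Arntl of its group, at 5.01 CPM, and the highest mitochondrial share of all libraries, at 16.2%. Without it, Dbp was still called in shRNA+BBR against Vec+BBR.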

How the results depend on the processing

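Of 13 calls of clock genes, 5 held under every alternative, and none changed direction. Over 1251 alternatives for 45 fold changes of clock genes, 1159 kept direction and side of the threshold, 33 lost it and 16 gained it. The number of clock genes called in Vec+BBR against Vec (2) became 0 with library size alone, 1 with only the groups compared and 1 with limma-voom, and ran from 0 (without Vec replicate 4) to 3 with each mouse left out. In shRNA against Vec (4) it ran from 1 to 5, and it was 1 without Vec replicate 1 or 2 or shRNA replicate 4 or 5. The count of 5 includes Npas2, which passed the filter on low counts only in some fits with 1 mouse left out. It did so through the knockdown mice, where it was high, so its call adds no support. In shRNA+BBR against shRNA (3) it ran from 1 (without shRNA+BBR replicate 3) to 4. In shRNA+BBR against Vec+BBR (4) it ran from 4 to 6, and for the interaction it was 0 throughout. With a replicate block the numbers were 3 for BBR without knockdown, 3 for BBR with knockdown, 4 in both knockdown comparisons and 0 for the interaction. For same-numbered mice, correlations of their deviations over 0.1 were found in 1 of 5 pairs in Vec+BBR against Vec. The number was 3 of 5 in shRNA+BBR against shRNA and 0 of 5 in both knockdown comparisons. None was above 0.262. Differently numbered mice were not compared, so these values do not decide whether the mice were paired.

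Signs changed 43 times, in fold changes near 0 that were not called. For Arntl in shRNA+BBR against shRNA the value became 0.03 with the replicate block and 0.00 with upper-quartile factors, and ran from −0.15 to 0.10 with each mouse left out. For Cry1 there it became −0.01 with limma-voom and −0.00 with library size alone, and ran from −0.06 to 0.10. For Per1 in shRNA+BBR against Vec+BBR it became −0.02 with library size alone and ran from −0.11 to 0.10. The interaction of Dbp became 0.01 with upper-quartile factors and ran from −0.27 to 0.29, and that of Per3 from −0.22 to 0.10. With each mouse left out, Dbp ran from −0.44 to 0.10 in Vec+BBR against Vec and from −0.36 to 0.01 in shRNA+BBR against shRNA. Nr1d2 ran from −0.10 to 0.11 in Vec+BBR against Vec and from −0.08 to 0.12 in shRNA against Vec, and Per2 from −0.19 to 0.01 in the latter. Without Npas2, which was left out after seeing the data, the night minus day means were −1.54, −1.77, −0.31 and 0.16. The cause of these changes was not tested.

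Over all genes, library size alone turned 936 higher and 972 lower genes in Vec+BBR against Vec into 1831 and 459, 652 and 976 in shRNA against Vec into 1098 and 559, and 9 and 9 for the interaction into 8 and 22. Upper-quartile factors turned 409 and 595 in shRNA+BBR against Vec+BBR into 552 and 486, and gave 23 and 12 for the interaction, where DESeq2 gave 183 and 147. Only 2 of the 5 genes nearest to Arntl and 4 of those nearest to Nr1d1 were kept with Spearman's rho. Of 32 calls of genes in the other lists, 8 held under every alternative, 14 were lost under 1 to 6 and 10 under 7 or more. Depth limited Npas2, at or under 3 counts in 4 of 5 Vec mice.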
